A study of Caenorhabditis elegans with 12 samples.

Results

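The 44 genes described here build and steer the machinery that divides a cell, namely the mitotic kinases, the centromere and kinetochore, the spindle checkpoint, the centriole and centrosome, spindle motors and microtubule factors, the cortical pulling complex, and the central spindle with the contractile ring. They were chosen by name and not by a measured value, although earlier results of these data were known. All 44 were found among the 25122 genes in the table. Expression was measured in Caenorhabditis elegans eggs of 3 genotypes with 4 libraries each. The triple mutant carries daf-16(mu86), daf-2(e1370) and bcl-11(bon125), written daf-16;daf-2;bcl-11. A second set is labelled as the double mutant daf-2;bcl-11, with the alleles e1370 and bon125. The third genotype is daf-2(e1370) alone. All 3 genotypes thus carry the daf-2 mutation in the insulin/IGF-1 receptor, 1 hypomorphic bcl-11 allele was used, and neither wild-type eggs nor daf-16;daf-2 eggs were analysed here. Parents were grown on OP50-1 bacteria at 20°C, and eggs freed by bleaching were held at 27°C for 2 h and then used for RNA extraction. Such eggs are a mixture of embryonic stages, so that fewer dividing cells and less RNA per cell cannot be told apart in these bulk values.

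In the C. elegans embryo, the first divisions run on mRNA and protein that the oocyte supplied. A centrosome pair brought in as sperm centrioles organises the first mitotic spindle, whereas the preceding meiotic spindle forms without centrosomes. The chromosomes are holocentric, with kinetochores along their whole length, and the spindle midzone and the cortical actomyosin ring then cleave the cell. Cell division ends in most lineages before the embryo elongates and its tissues mature.

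The deposited values are regularised log2 values (rlog), so a difference of 1 is a 2-fold change of the regularised value. It need not equal the fold change in counts, least of all for genes with low values. Genotypes were compared by limma across all 25122 genes. A gene was called where its Benjamini-Hochberg adjusted p was under 0.05 and it changed by more than 1.5-fold, which is 0.585 on the log2 scale. The labels give each library a batch number equal to its replicate number. No label says whether replicates were separate cultures, so the p-values measure the spread between these libraries, which may be technical. Every member was well expressed, with means over the 12 libraries of 10.31 to 15.83 against 6.09 for the median gene. These values are not scaled by gene length, and members were therefore not ranked by level.

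The genes named by the mutations serve as a check on the labels. daf-16 was at 9.58 to 9.90 in triple-mutant eggs, at 9.46 to 9.61 in the libraries labelled double mutant, and at 11.98 to 12.32 in daf-2 eggs. The libraries labelled double mutant thus had as little daf-16 RNA as those of the daf-16 mutant, although their label names no daf-16 allele, and they are called by their label throughout. bcl-11 averaged 9.10 ± 0.72, 9.28 ± 0.18 and 10.15 ± 0.37 in triple-mutant eggs, the libraries labelled double mutant and daf-2 eggs (SD, n = 4 each), and its mutation need not lower its RNA. It was called lower in both comparisons with daf-2. In triple-mutant eggs its log2 fold change was -1.05 (adjusted p = 0.0132, limma), although replicate 3, at 9.70, lay above the lowest daf-2 library, at 9.61. In the libraries labelled double mutant it was -0.87 (adjusted p = 0.0373, limma), without overlap. Some markers of other cells and stages were called too. Of 16 maternal oocyte RNAs, 2 rose in triple-mutant eggs and 14 in the libraries labelled double mutant, and of 11 early zygotic genes 1 rose and 1 fell in triple-mutant eggs, while 8 rose in the libraries labelled double mutant. Of 7 muscle genes, 6 fell in each comparison with daf-2. Of 8 neuronal genes 6 and 5 fell, of 8 epidermal genes 3 and 2 fell, and of 6 intestinal genes 3 fell in each, with 1 higher in triple-mutant eggs. No yolk or sperm gene was called, and these lists averaged no more than 6.53 in any library.

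Most members rose in each comparison with daf-2 eggs, and none fell. In triple-mutant eggs, 28 of the 44 rose and the other 16 were not called. Of those 16, 10 had an adjusted p under 0.05 (limma) and missed only the fold threshold. Among all genes, 22.5% were called in this comparison, 6.38% as higher and 16.2% as lower. In the libraries labelled double mutant, 28 of the 44 rose as well, while 22.0% of all genes were called, 7.00% as higher and 15% as lower. There, 11 of the 16 uncalled members had an adjusted p under 0.05 (limma). The median member differed from daf-2 by 0.67 in triple-mutant eggs and by 0.62 in the libraries labelled double mutant, against all-gene medians of -0.01 and -0.02. The 4 daf-2 libraries serve as the control in both. The called members changed by 1.5-fold to 1.95-fold in triple-mutant eggs and by 1.51-fold to 2.4-fold in the libraries labelled double mutant.

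Well expressed genes moved upward more often than genes at large. Of the 6610 genes whose mean was at least that of the lowest member, 18% rose and 9.95% fell in triple-mutant eggs, and 17.3% rose and 10.5% fell in the libraries labelled double mutant, with medians of 0.34 and 0.26. The members' shares were thus read against these values as well as against all genes. This set is called genes at the members' level below. It has only a lower bound, 10.31, and includes the members, so it is not matched to their levels. Within the 4 labelled batches, 40 members were higher than daf-2 in every batch in triple-mutant eggs, and 41 in the libraries labelled double mutant. The share of other genes that were higher in every batch was not counted, so these counts stand without a background. The 4 triple-mutant libraries did not overlap those of daf-2 for 37 members, where 29.8% of all genes and 44.6% of the genes at the members' level did not overlap. For the libraries labelled double mutant there were 39 such members, against 35.3% of all genes and 57.9% of those at the members' level. The number of calls depended on how libraries are scaled. Quantile normalization left 7 members called in triple-mutant eggs and 9 in the libraries labelled double mutant, and all of these were higher, against 9.06% and 8.80% of all genes called higher under that setting. Centring each library on its median moved all genes up by 0.54 and 0.43 and left 43 and 41 members called, against 37.6% and 26.7% of all genes called higher. Relative to the all-gene median, the median member stood 0.68 and 0.64 higher as deposited, 0.69 and 0.64 higher after centring, and 0.34 and 0.40 higher after quantile normalization, each in triple-mutant eggs and in the libraries labelled double mutant.

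**Figure D1:**
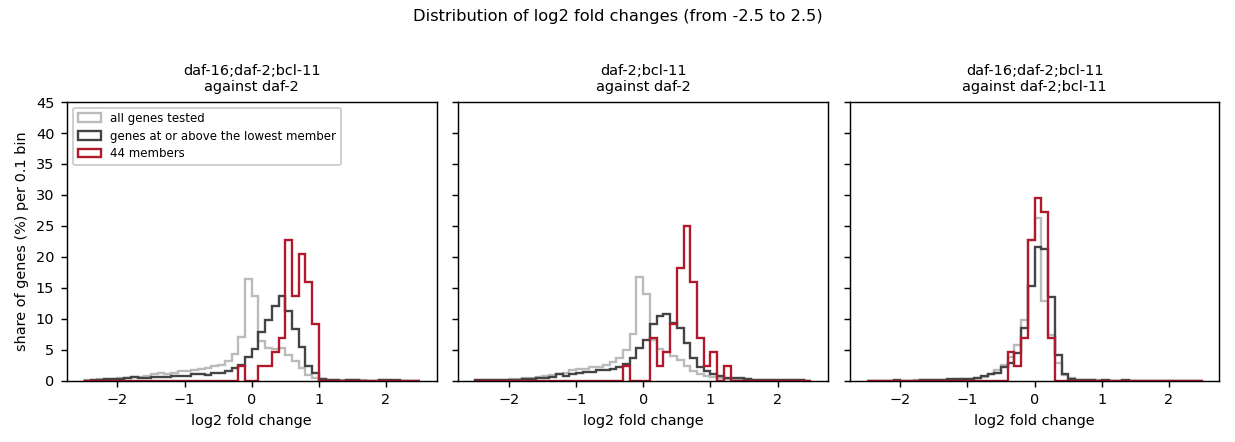
Distribution of log2 fold changes in 3 comparisons, as the share of genes (%) per bin of 0.1. Grey, all 25122 genes; black, the 6610 genes at or above the lowest member's mean; red, the 44 members. In the 2 comparisons with daf-2 the members' medians were 0.67 and 0.62, to the right of both other curves, and between the triple mutant and the libraries labelled double mutant their median was 0.06.

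The mitotic kinases and the chromosomal passenger complex rose almost as a whole. AIR-2, the Aurora B kinase, works with ICP-1 (INCENP) and BIR-1 (Survivin) on chromosomes and later at the spindle midzone, whereas AIR-1 (Aurora A) and PLK-1 (Polo kinase) act at centrosomes. 4 of these 5 genes rose in each comparison, with medians of 0.85 in triple-mutant eggs and 0.82 in the libraries labelled double mutant. air-2, on chromosome I at 5937195 to 5938881 (plus strand, WBcel235), had values of 13.64, 13.70, 13.44 and 13.45 in triple-mutant eggs, of 13.74, 13.59, 13.43 and 13.51 in the libraries labelled double mutant, and of 12.52, 12.80, 12.86 and 12.43 in daf-2 eggs. All 8 mutant libraries lay above all 4 of daf-2. The log2 fold change of air-2 was 0.91 (SE 0.12) in both comparisons, with adjusted p = 9.05e-05 and 0.000129 (limma). icp-1, on chromosome I at 2304513 to 2306790 (minus strand), stood at 14.59, 14.79, 14.45 and 14.69 in triple-mutant eggs, at 14.79, 14.58, 14.44 and 14.51 in the libraries labelled double mutant, and at 13.53, 13.78, 13.92 and 13.58 in daf-2 eggs. Here too the mutant and daf-2 libraries did not overlap, and the fold changes were 0.93 and 0.88. air-1 rose by 0.85 and 0.77, and plk-1 by 0.81 and 0.82. bir-1 had differences of 0.46 and 0.42 that passed the p threshold but not the fold threshold, and its libraries overlapped those of daf-2.

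**Figure D2:**
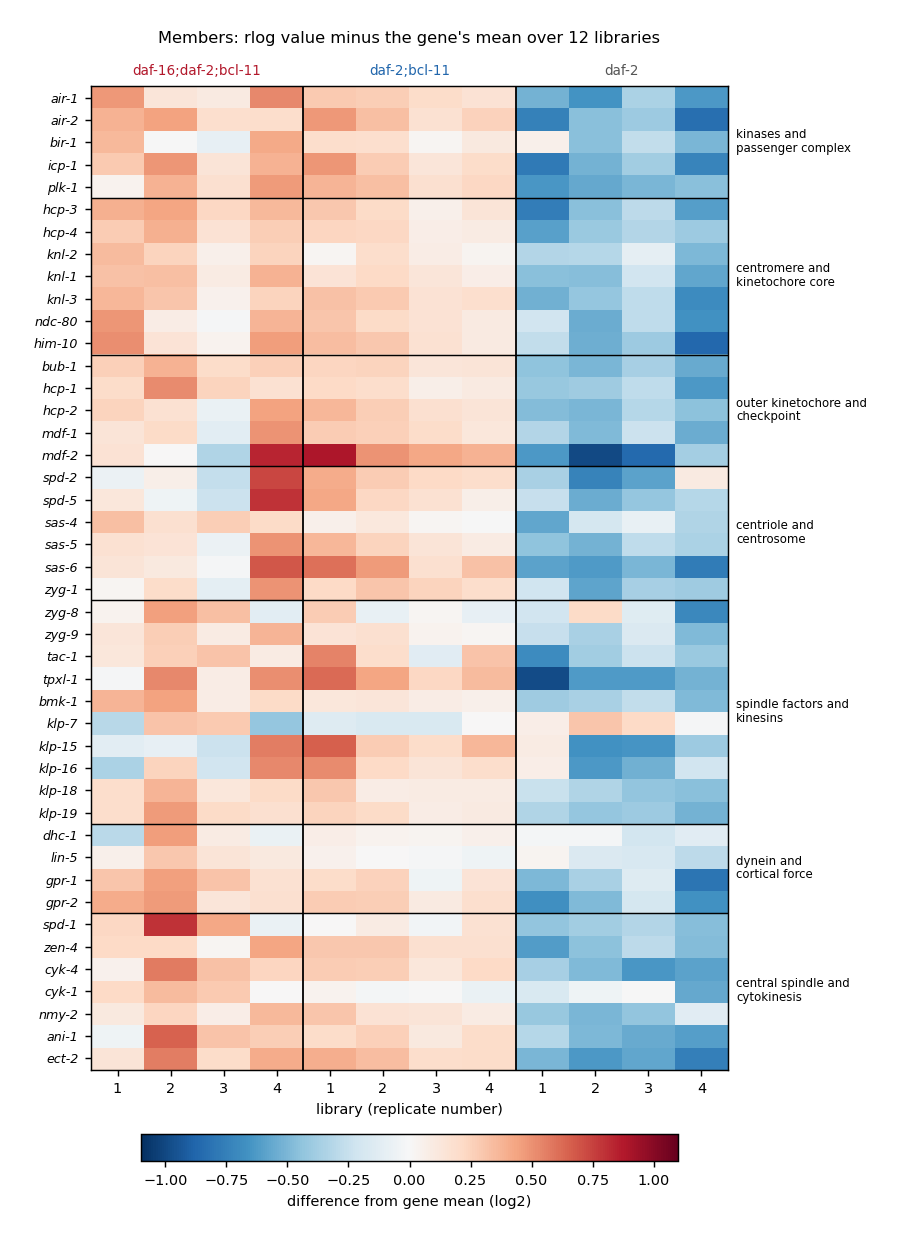
Values of the 44 members in 12 libraries, as the difference from each gene's mean over the libraries (log2, colour), with rows grouped by role and columns by genotype, the triple mutant (daf-16;daf-2;bcl-11) at left, the libraries labelled double mutant in the middle and daf-2 at right. The daf-2 columns are mostly blue. The row of klp-7 differs, with values of 11.53 to 11.85 in daf-2 eggs and of 11.12 to 11.86 in triple-mutant eggs.

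Most genes of the centromere and the core kinetochore also rose. HCP-3 (CENP-A) is the centromeric histone, KNL-2 and HCP-4 (CENP-C) act with it at the chromatin, and KNL-1, KNL-3, NDC-80 and HIM-10 (Nuf2) belong to the network that binds microtubules. Of these 7 genes, 6 rose in triple-mutant eggs and 5 in the libraries labelled double mutant, with medians of 0.71 and 0.62. hcp-3, on chromosome III at 9615306 to 9616470 (minus strand), was at 13.67, 13.71, 13.51 and 13.64 in triple-mutant eggs, at 13.58, 13.49, 13.34 and 13.42 in the libraries labelled double mutant, and at 12.52, 12.82, 12.99 and 12.67 in daf-2 eggs. No mutant library fell as low as any of daf-2. hcp-3 thus rose by 0.88 (SE 0.11, adjusted p = 6.21e-05) and 0.71 (SE 0.11, adjusted p = 0.000442, both limma). hcp-4 had the smallest called change in the libraries labelled double mutant. Its values were 14.91, 15.02, 14.79 and 14.90 in triple-mutant eggs, 14.87, 14.86, 14.70 and 14.72 in the libraries labelled double mutant, and 14.03, 14.22, 14.31 and 14.23 in daf-2 eggs. It rose by 0.71 in triple-mutant eggs and by 0.59 (SE 0.09) in the libraries labelled double mutant. Its SD was 0.09 in both mutant genotypes and 0.12 in daf-2 eggs, and the smaller rise, at the edge of the fold threshold, had an adjusted p of 0.000405 (limma). him-10 rose by 0.81 and 0.75, knl-3 by 0.73 and 0.72, and ndc-80 by 0.66 and 0.62. knl-1 rose by 0.71 in triple-mutant eggs and differed by 0.57 in the libraries labelled double mutant, just under the fold threshold. knl-2 differed by 0.53 and 0.39 and was not called, although its mutant libraries lay above those of daf-2.

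The checkpoint and the outer kinetochore held the member with the largest change. BUB-1 is a kinase of the outer kinetochore, HCP-1 and HCP-2 are related to CENP-F, and MDF-1 (Mad1) and MDF-2 (Mad2) carry the signal that delays anaphase until chromosomes are attached. In each comparison 4 of these 5 genes rose, with medians of 0.71 in triple-mutant eggs and 0.66 in the libraries labelled double mutant. mdf-2, on chromosome IV at 2636227 to 2641125 (minus strand), had values of 13.43, 13.28, 12.94 and 14.11 in triple-mutant eggs, of 14.16, 13.77, 13.70 and 13.66 in the libraries labelled double mutant, and of 12.64, 12.28, 12.42 and 12.90 in daf-2 eggs. Replicate 4 of the triple mutant was well above the other 3, and the lowest library of that genotype was only just above the highest of daf-2. mdf-2 rose by 1.26 (SE 0.21, adjusted p = 0.000664) in the libraries labelled double mutant and by 0.88 (SE 0.21, adjusted p = 0.00569, both limma) in triple-mutant eggs, and the second rise was 0.65 to 1.05 when any 1 library was left out. Another annotated gene shares exon sequence with mdf-2 on the same strand, and a further one on the opposite strand, so its reads are less certain than most. bub-1 rose by 0.75 and 0.66 with the smallest adjusted p of all members, 1.78e-05 and 7.34e-05 (limma), and its SD was 0.06 to 0.08 in each genotype.

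The related genes hcp-1 and hcp-2, both on chromosome V, gave similar values. hcp-1 was at 15.33, 15.65, 15.37 and 15.30 in triple-mutant eggs, at 15.35, 15.32, 15.19 and 15.23 in the libraries labelled double mutant, and at 14.71, 14.74, 14.85 and 14.50 in daf-2 eggs. hcp-2 was at 14.96, 14.88, 14.64 and 15.15, at 15.08, 14.98, 14.89 and 14.85, and at 14.23, 14.21, 14.40 and 14.26 in the same order of genotypes. For both genes all mutant libraries exceeded all of daf-2. hcp-1 rose by 0.71 in triple-mutant eggs and differed by 0.57, not called, in the libraries labelled double mutant. hcp-2 rose by 0.63 and 0.68. mdf-1 rose by 0.62 in the libraries labelled double mutant and differed by 0.58 in triple-mutant eggs, just under the threshold.

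The genes of the centriole and centrosome had a wider spread among the triple-mutant libraries. ZYG-1 is the kinase that starts centriole duplication, SAS-4, SAS-5 and SAS-6 build the new centriole, and SPD-2 and SPD-5 form the pericentriolar scaffold that nucleates microtubules. Of these 6 genes, 2 rose in triple-mutant eggs and 5 in the libraries labelled double mutant, with medians of 0.54 and 0.62, and none of the 6 differed between the mutant genotypes by the test. sas-6, on chromosome IV at 13786945 to 13788731 (minus strand), had values of 11.30, 11.26, 11.14 and 11.84 in triple-mutant eggs, of 11.76, 11.62, 11.33 and 11.48 in the libraries labelled double mutant, and of 10.57, 10.53, 10.65 and 10.39 in daf-2 eggs. Replicate 4 was again the highest of its genotype, and no mutant library reached down to daf-2. sas-6 rose by 1.01 (SE 0.16, adjusted p = 0.000357) in the libraries labelled double mutant and by 0.85 (SE 0.16, adjusted p = 0.000842, both limma) in triple-mutant eggs, and its reads may include some of icap-1, whose exons overlap it on the same strand. sas-5 had the smallest called change in triple-mutant eggs, at 14.31, 14.29, 14.07 and 14.63 there, 14.50, 14.38, 14.28 and 14.23 in the libraries labelled double mutant, and 13.70, 13.62, 13.86 and 13.79 in daf-2 eggs. It rose by 0.59 and 0.61, at the edge of the fold threshold.

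The values of spd-2 and spd-5 depended on single libraries. spd-2 was at 13.48, 13.61, 13.28 and 14.28 in triple-mutant eggs, at 13.95, 13.82, 13.76 and 13.74 in the libraries labelled double mutant, and at 13.19, 12.81, 12.95 and 13.64 in daf-2 eggs, with replicate 4 highest in the first and the last. spd-2 rose by 0.67 (adjusted p = 0.0214, limma) in the libraries labelled double mutant and differed by 0.52 (adjusted p = 0.0656) in triple-mutant eggs. spd-5 rose by 0.61 and differed by 0.54 in the same 2 comparisons, and zyg-1 rose by 0.63 and differed by 0.54. Without replicate 4 of the triple mutant, the differences in triple-mutant eggs were 0.31 for spd-2 and 0.33 for spd-5. The call of spd-2 in the libraries labelled double mutant was lost without any 1 of 4 libraries, and that of spd-5 without either of 2. sas-4 differed by 0.54 in triple-mutant eggs and by 0.34 in the libraries labelled double mutant and was not called. spd-5 shares exon sequence with hcp-6 on the opposite strand, and the libraries do not keep strand.

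**Figure D3:**
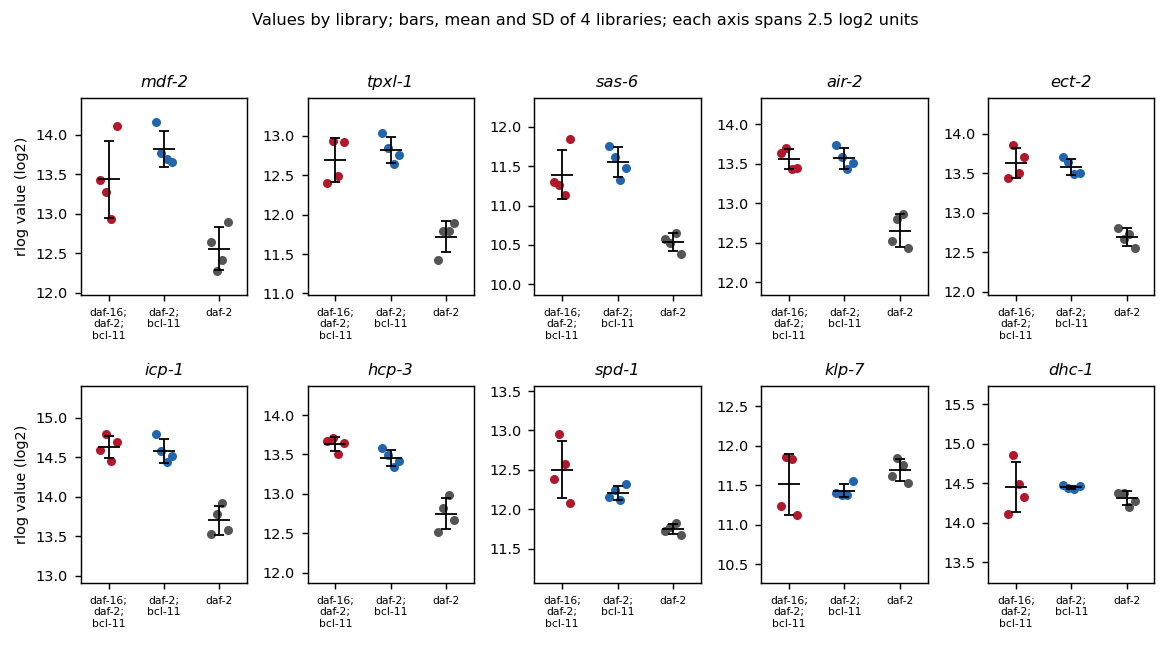
rlog values (log2) of 10 members by library, with the triple mutant (daf-16;daf-2;bcl-11) at left, libraries labelled double mutant in the middle and daf-2 at right. Points are libraries and bars the mean and SD of 4. For mdf-2, tpxl-1, sas-6, air-2, ect-2, icp-1, hcp-3 and spd-1 no mutant library fell to the daf-2 range, whereas the points of klp-7 overlap and its mutant means of 11.51 and 11.43 lie below 11.69 in daf-2 eggs.

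The spindle microtubule factors and kinesins were the most varied of the groups. TPXL-1 activates AIR-1 on spindle microtubules, ZYG-9 (XMAP215) and TAC-1 promote microtubule growth, ZYG-8 is a doublecortin-related kinase, KLP-7 depolymerises microtubules, and BMK-1, KLP-15, KLP-16, KLP-18 and KLP-19 are spindle kinesins. Of these 10 genes, 5 rose in triple-mutant eggs and 4 in the libraries labelled double mutant, with medians of 0.56 and 0.54. tpxl-1, which lies next to icp-1 on chromosome I at 2297392 to 2304397 on the same strand, had values of 12.40, 12.94, 12.49 and 12.92 in triple-mutant eggs, of 13.03, 12.84, 12.64 and 12.76 in the libraries labelled double mutant, and of 11.43, 11.79, 11.79 and 11.89 in daf-2 eggs. Every mutant library was above the highest of daf-2. tpxl-1 rose by 0.96 (SE 0.15, adjusted p = 0.000297), the largest change of any member in triple-mutant eggs, and by 1.09 (SE 0.15, adjusted p = 0.000179, both limma) in the libraries labelled double mutant. tac-1 rose by 0.63 and 0.67. zyg-9 differed by 0.53 and 0.41 without reaching the fold threshold, and zyg-8 by 0.39 and 0.24 with libraries that overlapped those of daf-2.

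Among the kinesins, klp-7 alone had lower means in the mutants than in daf-2 eggs. Its values were 11.24, 11.86, 11.83 and 11.12 in triple-mutant eggs, 11.40, 11.38, 11.38 and 11.55 in the libraries labelled double mutant, and 11.62, 11.85, 11.76 and 11.53 in daf-2 eggs. The groups overlapped, the differences of -0.18 and -0.26 did not pass the test, and both became positive, at 0.36 and 0.17, when each library was centred on its median. klp-7 was singled out after its values were seen. klp-19 rose by 0.68 and klp-18 by 0.60 in triple-mutant eggs, and they differed by 0.57 and 0.51 in the libraries labelled double mutant without being called.

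klp-15 and klp-16, on chromosome I, encode closely similar minus-end-directed kinesins whose reads could have been divided between them, and their separate values are uncertain. klp-15 was at 10.45, 10.48, 10.33 and 11.13 in triple-mutant eggs, at 11.23, 10.85, 10.77 and 10.93 in the libraries labelled double mutant, and at 10.66, 9.90, 9.92 and 10.17 in daf-2 eggs. klp-16 was at 11.13, 11.72, 11.27 and 12.01, at 12.00, 11.70, 11.62 and 11.67, and at 11.55, 10.85, 10.95 and 11.27 in the same order. In both genes replicate 1 was the highest daf-2 library and replicate 4 the highest of the triple mutant. klp-15 rose by 0.78 (adjusted p = 0.0101) and klp-16 by 0.59 (adjusted p = 0.0384, limma) in the libraries labelled double mutant. In triple-mutant eggs they differed by 0.43 (adjusted p = 0.127) and 0.38 (adjusted p = 0.178), with overlap.

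The members of the cortical pulling complex did not move by the same amount. DHC-1 is the heavy chain of the dynein motor, LIN-5 (NuMA) anchors it, and GPR-1 and GPR-2 link LIN-5 to G proteins at the cortex, which pulls the spindle to one side in the zygote. gpr-1 and gpr-2 rose in both comparisons, whereas dhc-1 and lin-5 were not called in either on the deposited scale. The gpr genes, at 2 places on chromosome III, are near-identical copies, and reads could have been split between them. gpr-1 was at 13.34, 13.49, 13.35 and 13.20 in triple-mutant eggs, at 13.24, 13.29, 12.99 and 13.19 in the libraries labelled double mutant, and at 12.54, 12.68, 12.89 and 12.23 in daf-2 eggs. gpr-2 was at 13.58, 13.64, 13.31 and 13.35, at 13.45, 13.44, 13.27 and 13.36, and at 12.50, 12.69, 12.98 and 12.51 in the same order. Neither gene had a mutant library within the daf-2 range. gpr-1 rose by 0.76 and 0.59, and gpr-2 by 0.80 and 0.71. dhc-1 differed by 0.14 (SE 0.13) in both comparisons, and lin-5 by 0.29 and 0.14. In triple-mutant eggs the lin-5 difference had an adjusted p of 0.03 (limma), under the fold threshold and without overlap with daf-2. The 95% interval of dhc-1 was -0.14 to 0.42 in triple-mutant eggs and -0.14 to 0.43 in the libraries labelled double mutant, both below the fold threshold. This held for the deposited scale only. With each library centred on its median, dhc-1 rose by 0.68 (adjusted p = 0.000777) and lin-5 by 0.83 (adjusted p = 1.98e-05, both limma) in triple-mutant eggs, and both differed by 0.57 in the libraries labelled double mutant without being called, while under quantile normalization the differences of both genes took the opposite sign.

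**Figure D4:**
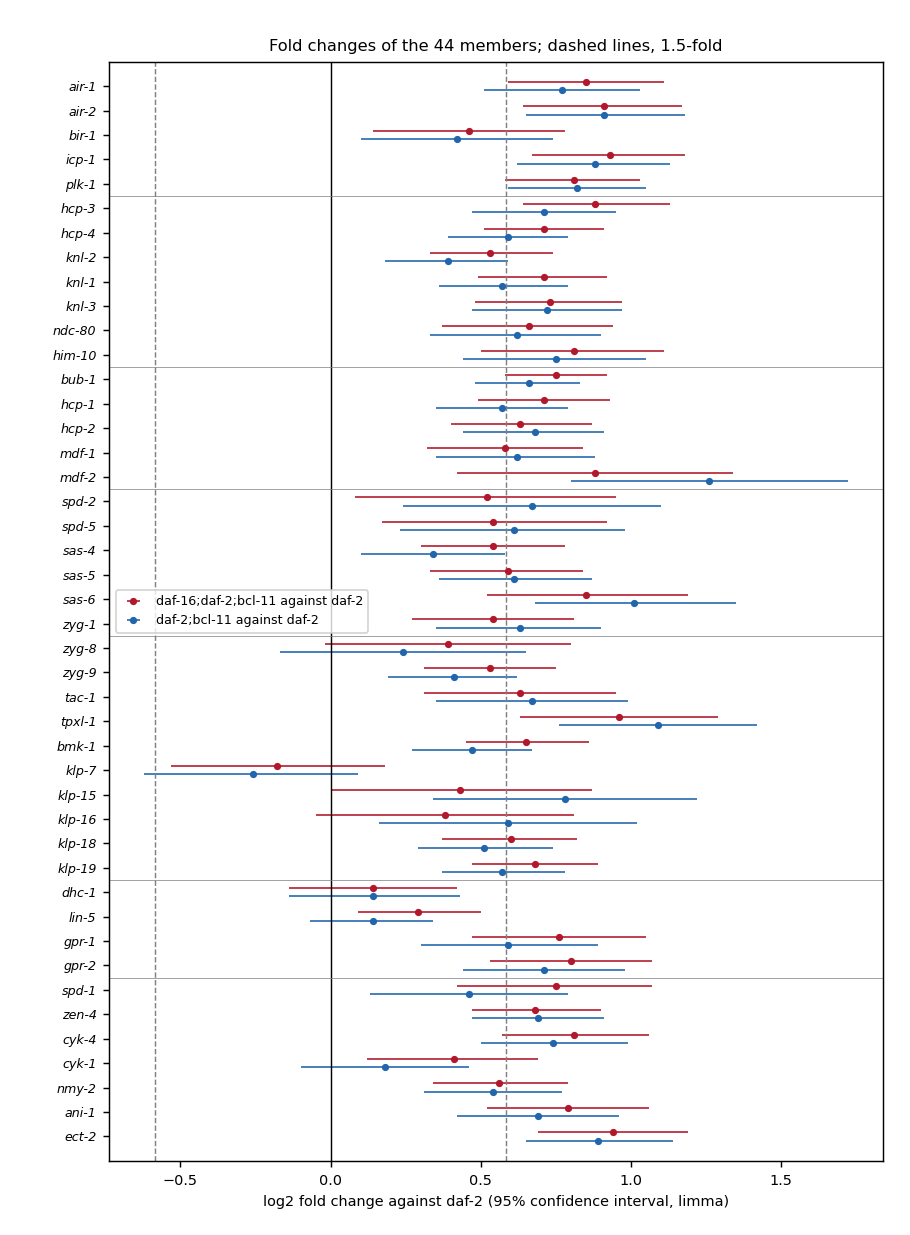
log2 fold changes of the 44 members against daf-2 with 95% confidence intervals (limma), red for the triple mutant (daf-16;daf-2;bcl-11) and blue for the libraries labelled double mutant, with genes grouped by role from the kinases at the top to cytokinesis at the bottom. Dashed lines mark 1.5-fold (0.585 on the log2 scale), and 28 members of each colour were called beyond the right-hand line.

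The central spindle and the contractile ring rose for the most part. SPD-1 (PRC1) bundles midzone microtubules, ZEN-4 and CYK-4 form centralspindlin, ECT-2 is a guanine nucleotide exchange factor, and CYK-1 (a formin), NMY-2 (non-muscle myosin) and ANI-1 (anillin) belong to the ring. Of these 7 genes, 5 rose in triple-mutant eggs and 4 in the libraries labelled double mutant, with medians of 0.75 and 0.69. ect-2, on chromosome II at 10778387 to 10783962 (minus strand), had values of 13.44, 13.86, 13.50 and 13.71 in triple-mutant eggs, of 13.70, 13.64, 13.49 and 13.50 in the libraries labelled double mutant, and of 12.80, 12.67, 12.73 and 12.55 in daf-2 eggs. The mutant libraries were all above daf-2. ect-2 rose by 0.94 (SE 0.11, adjusted p = 4.09e-05) and 0.89 (SE 0.11, adjusted p = 9.82e-05, both limma). cyk-4 rose by 0.81 and 0.74, zen-4 by 0.68 and 0.69, and ani-1 by 0.79 and 0.69. nmy-2 differed by 0.56 and 0.54, just short of the fold threshold, and cyk-1 by 0.41 and 0.18. For cyk-1 in triple-mutant eggs the adjusted p was 0.029 (limma), without overlap with daf-2.

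spd-1 had a wide spread in 1 genotype. Its values were 12.38, 12.95, 12.58 and 12.08 in triple-mutant eggs, 12.16, 12.24, 12.12 and 12.32 in the libraries labelled double mutant, and 11.72, 11.77, 11.83 and 11.68 in daf-2 eggs. Replicate 2 of the triple mutant was the highest and replicate 4 the lowest, which overlapped the libraries labelled double mutant but not daf-2. spd-1 rose by 0.75 (adjusted p = 0.00182, limma) in triple-mutant eggs and differed by 0.46 (adjusted p = 0.0351) in the libraries labelled double mutant.

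Triple-mutant eggs were then compared directly with the libraries labelled double mutant. Since daf-16 RNA was low in both sets, a wrong label and an effect of the labelled genotype cannot be told apart, and the sets may not differ at daf-16 as their labels say. No member was called by limma, and none had an unadjusted p under 0.05, where 0.0119% of all genes were called (3 genes) and 6.03% had such a p. The differences of members ranged from -0.38 to 0.29 with a median of 0.06. The 3 smallest p belonged to bmk-1, spd-1 and mdf-2. bmk-1 was at 15.70, 15.77, 15.41 and 15.54 in triple-mutant eggs, at 15.45, 15.46, 15.41 and 15.38 in the libraries labelled double mutant, and at 14.94, 14.97, 15.06 and 14.84 in daf-2 eggs. It differed by 0.18 between the mutants (95% interval -0.02 to 0.38, adjusted p = 0.787, limma), rose by 0.65 against daf-2 in triple-mutant eggs, and differed by 0.47 in the libraries labelled double mutant. The difference of spd-1 between the mutants was 0.29 (-0.04 to 0.62) and that of mdf-2 -0.38 (-0.84 to 0.08). Only sas-4 and lin-5 had libraries that did not overlap between the mutants, 2 of 44 members, against 4.32% of all genes and 7.5% of those at the members' level. On the deposited scale, the 95% intervals of 5 members reached beyond 1.5-fold in one direction, so a change of that size was within reach of the error for these. The intervals of the other 39 did not reach that far on this scale. Centring each library on its median moved all genes up by 0.11 in this comparison. All 16 maternal oocyte RNAs and all 11 early zygotic genes had lower means in triple-mutant eggs, with medians of -0.68 and -0.94. None was called, and 3 and 7 had an unadjusted p under 0.05 (limma). In replicate 4 both list means were instead higher in the triple mutant, 12.49 against 11.76 and 9.3 against 8.74.

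**Figure D5:**
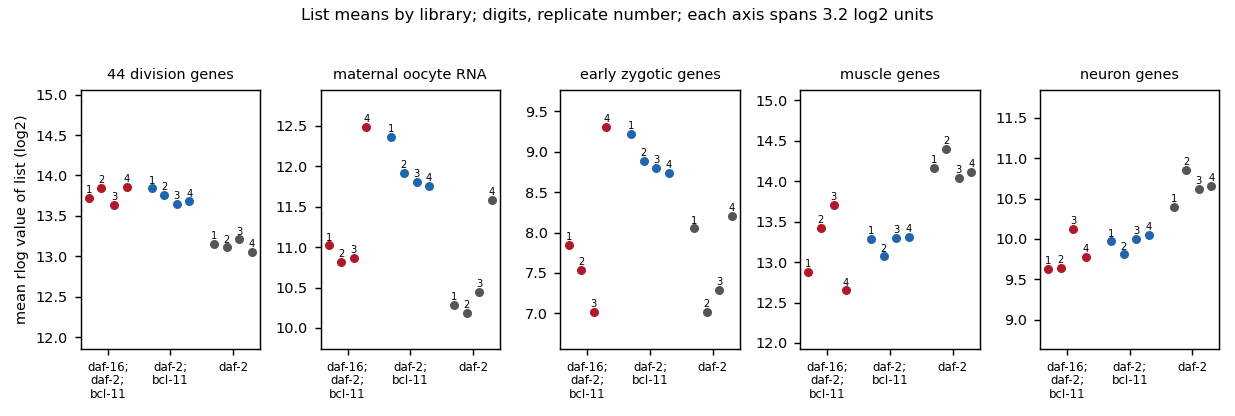
Mean rlog value (log2) of 5 gene lists in each library, with the triple mutant (daf-16;daf-2;bcl-11) at left, the libraries labelled double mutant in the middle and daf-2 at right, and digits giving the replicate. The 44 division genes averaged 13.64 to 13.86, 13.65 to 13.84 and 13.05 to 13.21, without overlap of the mutants with daf-2, while within the triple mutant and within daf-2 the maternal list was highest in replicate 4.

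Across the libraries, the mean of the 44 members was 13.64 to 13.86 in triple-mutant eggs, 13.65 to 13.84 in the libraries labelled double mutant and 13.05 to 13.21 in daf-2 eggs. The maternal oocyte markers had another pattern. Their mean was 11.02, 10.82, 10.87 and 12.49 in triple-mutant eggs, 12.36, 11.92, 11.81 and 11.76 in the libraries labelled double mutant, and 10.29, 10.19, 10.45 and 11.58 in daf-2 eggs. Replicate 4 of the triple mutant and replicate 4 of daf-2 thus stood above the others of their genotype. Of the 44 members, 17 were highest and 8 lowest in replicate 4 of the triple mutant among the libraries of that genotype, while 21 were highest in its replicate 2. mdf-2, spd-2, spd-5, sas-6, klp-15 and klp-16 were among those highest in replicate 4 of the triple mutant, and spd-1 and klp-7 among those lowest there. The muscle list was at 12.65 to 13.71, 13.07 to 13.31 and 14.04 to 14.40 in the same order of genotypes, and the neuronal list at 9.63 to 10.12, 9.81 to 10.05 and 10.40 to 10.85, both highest in daf-2 eggs. The part of these marker lists in the members' results was not tested. In the maternal list, all 4 libraries labelled double mutant were above the highest of daf-2. Without replicate 4 of the triple mutant and replicate 4 of daf-2, 25 members rose in triple-mutant eggs and 26 in the libraries labelled double mutant. The share of all genes called in that setting was not counted.

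Further genes of cell division were read from the same fit. From 80 such genes in 5 lists, 34 rose in triple-mutant eggs and 35 in the libraries labelled double mutant, none fell, and the medians were 0.58 and 0.54. By comparison, 6.38% and 7.00% of all genes were called higher, and 18% and 17.3% of those at the members' level. Of 15 further kinetochore and checkpoint genes, 5 and 8 rose, among them zwl-1, the Zwilch subunit of a complex that recruits dynein to kinetochores, by 1.00 and 1.11. cpar-1, a second CENP-A-like histone, rose by 0.96 in the libraries labelled double mutant and differed by 0.50 in triple-mutant eggs. Of 15 genes of the anaphase-promoting complex and separase, 7 and 10 rose. apc-10, a subunit of that ubiquitin ligase, and ify-1, the securin that holds separase inactive, rose by 1.41 and 1.09 in the libraries labelled double mutant and differed by 0.53 and 0.69 in triple-mutant eggs, where their SDs were 1.05 and 0.60.

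The 9 condensin genes, which compact chromosomes, had 7 and 2 calls, and smc-4 rose by 0.79 and dpy-28 by 0.74 in triple-mutant eggs, against differences of 0.54 and 0.58 in the libraries labelled double mutant. Of 26 further centrosome and spindle genes, 7 and 9 rose, with ran-1, the Ran GTPase, at 0.93 and 1.20. mei-2, a katanin subunit of the meiotic spindle, rose by 1.00 in the libraries labelled double mutant and differed by 0.68 in triple-mutant eggs. Of 15 further cytokinesis genes, 8 and 6 rose. rga-3, a GTPase-activating protein, and ani-2, an anillin relative of the germ line, rose by 1.25 and 0.98 in the libraries labelled double mutant and differed by 0.66 and 0.55 in triple-mutant eggs. None of the 80 genes was called between the mutants by limma, while 13 had an unadjusted p under 0.05. Such a p was found for 6.03% of all genes and for no member. Libraries of the mutants did not overlap for 9 of the 80 genes (11.2%). The same held for 4.32% of all genes and 7.5% of those at the members' level. Without replicate 4 of the triple mutant, 2 of the 80 were called in that comparison, 1 higher and 1 lower in triple-mutant eggs, the lower being rga-3 at -0.89 (SE 0.20, adjusted p = 0.0491, limma). The share of all genes called without that library was not counted.

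The members share features that did not enter their choice. They lay on all 5 autosomes, with 13 each on chromosomes I and III, 8 on V and 5 each on II and IV, and none was on X, which holds 13.5% of the genes expressed at the members' level. Exons of 13 members overlap exons of another gene on the opposite strand, and since the libraries keep no strand, these reads cannot be told apart. They are hcp-3, knl-2, knl-3, ndc-80, hcp-1, mdf-2, spd-2, spd-5, tpxl-1, klp-19, zen-4, cyk-4 and cyk-1. Of these 13 members 9 rose in each comparison, and of the 31 without such overlap 19 rose in each. The SD of members among libraries was 0.07 to 0.49 in triple-mutant eggs, 0.02 to 0.28 in the libraries labelled double mutant and 0.06 to 0.38 in daf-2 eggs. Genes at the members' level had the same order, with median SDs of 0.25, 0.10 and 0.20.

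Several calls lay so close to the fold or the p threshold that 1 library settled them. In triple-mutant eggs, 5 members lost their call when 1 library was left out. These were sas-5 (0.57, 0.55 and 0.49 without daf-2 replicate 1, daf-2 replicate 2 and triple-mutant replicate 4), tac-1 (0.54 without daf-2 replicate 1), klp-18 (0.57 without daf-2 replicate 3 or 4, 0.55 without triple-mutant replicate 2), ndc-80 (0.58 without daf-2 replicate 4, 0.57 without triple-mutant replicate 1) and hcp-2 (0.55 without triple-mutant replicate 4). In the libraries labelled double mutant, 10 members did so. Without daf-2 replicate 1 these were hcp-4 (0.54), tac-1 (0.58) and gpr-1 (0.58). Without daf-2 replicate 2 they were ndc-80 (0.58), spd-2 (0.56), spd-5 (0.55), sas-5 (0.57), zyg-1 (0.56) and klp-16 (0.49). Without daf-2 replicate 3 they were spd-2 (0.60) and klp-16 (0.52), and without daf-2 replicate 4 they were ndc-80 (0.54), mdf-1 (0.57), klp-16 (0.63) and gpr-1 (0.48). Without replicate 1 of the libraries labelled double mutant they were hcp-4 (0.57), ndc-80 (0.58), spd-2 (0.63), spd-5 (0.54), sas-5 (0.56), tac-1 (0.56), klp-16 (0.51) and gpr-1 (0.57). Without its replicate 2 they were hcp-4 (0.57), spd-2 (0.67), klp-16 (0.61) and gpr-1 (0.56), and without its replicate 3 or 4 klp-16 (0.63 and 0.62).

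Calls were gained in the same way. In triple-mutant eggs, 8 members were gained, namely mdf-1, spd-5, zyg-1 and klp-15 (0.61, 0.59, 0.59 and 0.60) without daf-2 replicate 1, knl-2, mdf-1 and sas-4 (0.60, 0.63 and 0.61) without daf-2 replicate 3, and spd-2 and nmy-2 (0.68 and 0.64) without daf-2 replicate 4. Without triple-mutant replicate 1 mdf-1 and nmy-2 were at 0.59, without its replicate 2 spd-5 was at 0.61, and without its replicate 3 knl-2, mdf-1, spd-2, spd-5, zyg-1 and nmy-2 were at 0.59, 0.68, 0.64, 0.68, 0.62 and 0.60. In the libraries labelled double mutant, 4 members were gained. klp-19 was at 0.60 without daf-2 replicate 1, knl-1 and hcp-1 at 0.64 and 0.62 without daf-2 replicate 3, and nmy-2 at 0.62 without daf-2 replicate 4. hcp-1 and klp-19 were both at 0.60 without replicate 3 of the libraries labelled double mutant, and knl-1, hcp-1 and klp-19 at 0.59 without its replicate 4. No single library ended either call of air-1, air-2, icp-1, plk-1, hcp-3, knl-3, him-10, bub-1, mdf-2, sas-6, tpxl-1, gpr-2, zen-4, cyk-4, ani-1 or ect-2.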

How the data were processed

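Total RNA from eggs (5 ng) was made into Smart-seq2 libraries, which do not keep strand. Per the submitters' processing notes, bcl2fastq 2.20 and kallisto 048.0 were used with genome build WBcel235. Values were deposited on a log2 scale, and the authors applied the regularised log transformation to normalised counts. How transcripts were summed to genes and the filter on low counts are not given in the sources used here. Such values keep no library totals, so the depth per sample is unknown and no counting interval was given. The values of all 25122 genes were used as deposited. No pair of the 12 libraries was identical.

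limma 3.58.1 (R 4.3.3) compared the genotypes in 1 fit of 12 libraries, with a trend of variance on mean level and Benjamini-Hochberg adjustment over all genes tested. The study names no test, and its thresholds (adjusted p under 0.05, over 1.5-fold) were used. The code was tested on simulated data. Batch numbers in the labels equal replicate numbers and so pair the libraries across genotypes, and deviations from the group means of same-numbered libraries correlated at -0.298 to 0.378 over all genes. Coordinates and exon overlaps came from the Ensembl 115 annotation of WBcel235, and no sequence was used here. The alternatives were another scaling, fold threshold, low-value filter or variance model, only the genotypes compared, a replicate block, and leaving out each library. Leaving out replicate 4 of the triple mutant and of daf-2, whose maternal markers stood above the others of their genotype, was added after seeing the data.

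All 44 members are named. Values per library are given for the 5 called members with the largest change and the called member with the smallest in each comparison with daf-2, for the 3 members with the smallest p between the mutants, and for the related pairs hcp-1 and hcp-2, klp-15 and klp-16, gpr-1 and gpr-2. From each list of other division genes up to 2 called genes with the largest change were named. spd-2 and klp-7 were added after their values were seen. 1 of the further genes is not reported here by name. The members and lists were chosen with earlier results of these data known.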

Additional observations from a re-analysis of the deposited data

Results flagged for a closer look

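In 3 of the 132 sets of 4 libraries checked, 1 library lay far from the other 3 by Dixon's ratio of its gap to the range, where chance gives about 6.6 such sets, or 1 in 20. klp-19 was at 14.64 in replicate 2 of the triple mutant, against a mean of 14.37 in the other 3 (ratio 0.915). klp-18 was at 12.87 in replicate 1 of the libraries labelled double mutant, against 12.67 in the other 3 (ratio 0.951). klp-7 was at 11.55 in replicate 4 of the same genotype, against 11.39 (ratio 0.882).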

How the results depend on the processing

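Without a library, with the replicate block, with another variance model, with a low-value filter or with only the compared genotypes, the members' counts of 28 and 28 in triple-mutant eggs and the libraries labelled double mutant stayed within 1.5 times, at 26 to 34 and 20 to 30 without 1 library and at 28 and 28 with the replicate block, which changed no member's call. Of the further division genes, 38 and 35 were called with the block, and 32 to 45 and 28 to 38 without 1 library. Between the mutants 0 members were called in all of these, and of the further genes 0 to 2 without 1 library and 4 without replicate 4 of both the triple mutant and daf-2. Centring each library on its median gave 43 and 41 members and 79 and 70 further genes, with the same counts when the replicate block was added. Quantile normalization gave 7 and 9 members and 18 and 20 further genes. A log2 threshold of 1 left 0 and 3 members and 0 and 6 further genes, and no fold threshold gave 38 and 39 members and 52 and 56 further genes. Shares of all genes were counted only for the main setting and the other scalings, so the remaining counts here stand without a background. Before adjustment, 40.5% and 39.5% of all genes had a p under 0.05 (limma). The sign changed for klp-7 on centring, with or without the block (0.36 and 0.17), and on quantile normalization for dhc-1 (-0.21 and -0.11), lin-5 (-0.03 and -0.07) and, in the libraries labelled double mutant, cyk-1 (-0.02), none of them called. Over the 20 alternatives other than the fold thresholds, 7 of the 28 calls in triple-mutant eggs and 8 of the 28 in the libraries labelled double mutant were kept throughout. The cause of these changes was not tested. The unknown depth and the 4 libraries a genotype limit what differences could be seen between the mutants.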
